A study of Mus musculus with 6 samples.

Results

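The 32 genes described here belong to the unfolded protein response of the endoplasmic reticulum (ER) and to the integrated stress response. They were chosen by name from knowledge of these pathways, with earlier results of these data known. Each was matched through its Ensembl identifier to a row of the deposited table, so 32 of 54600 rows are members. Where a symbol had several identifiers the row with the highest mean was used, which applied to Ddit3. The libraries are RNA-seq of mouse liver after 16 weeks of high-fat diet, 3 labelled WT and 3 labelled hepatocyte-specific HIF-2α knockout (KO), and both groups were on the diet. HIF-2α, the product of Epas1, is a transcription factor subunit that is stabilised when oxygen is low. Neither the Cre line nor the sex or age of the mice was stated in the labels. Whether each library is a separate animal was not stated either, so the p-values cover only the spread seen among these libraries, which may be technical. Values are TPM, a measure of transcript abundance per gene length scaled so that all libraries have equal totals, and they do not show how deeply a library was sequenced.

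Proteins that enter the ER are folded there by chaperones and disulfide isomerases, and hepatocytes, which secrete most plasma proteins, carry a heavy folding load. Unfolded protein is sensed by PERK, IRE1 and ATF6. IRE1 splices the Xbp1 mRNA, and XBP1 and cleaved ATF6 raise transcription of chaperone and degradation genes. PERK and related kinases phosphorylate eIF2α, which lowers general translation while the factor ATF4 is translated more, and ATF4 and its partner CHOP raise genes of amino acid supply and stress. TPM per gene shows neither Xbp1 splicing, ATF6 cleavage nor eIF2α phosphorylation, and ATF4 is controlled largely at translation.

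Before the results, 4 facts of the libraries bear on them. Epas1, the gene named as knocked out, had a higher mean in KO, at 30.4 ± 4.31 TPM, than in WT, at 23.6 ± 2.52 (SD, n = 3 each). It was at 23.8, 26.0 and 21.0 TPM in WT 1 to 3 and at 26.6, 35.1 and 29.4 in KO 1 to 3. Every KO-labelled library thus lay above every WT-labelled one (limma adjusted p = 0.993), where the labels did not overlap for 9.08% of all genes tested. TPM per gene in whole liver shows neither single exons nor which cells a transcript came from. Whether Epas1 was disrupted in hepatocytes was therefore not tested, and WT and KO below always mean the libraries so labelled. The median difference (KO minus WT) of the 11440 genes tested was +0.09 on the log2(TPM + 1) scale, which median-ratio scaling brought to -0.002. This shift was uneven over the libraries. The median deviation from the mean of the 6 libraries was +0.04, -0.02 and -0.16 in WT 1 to 3. In KO 1 to 3 it was +0.07, +0.09 and -0.03. With 1 library left out the median difference ran from +0.04 (without WT 3) to +0.14 (without WT 1). Libraries with the same number resembled each other, since their deviations from the label means correlated at 0.16, 0.41 and 0.38 over genes, and the number is used below to compare them. The 7 hepatocyte markers had a summed level from 45640 to 69020 TPM, in every library above the sum for any other cell type examined.

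The ER stress element (ERSE) is the promoter sequence through which ATF6, with the factor NF-Y, raises chaperone genes. Its letters, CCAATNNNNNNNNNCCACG, were searched on both strands from 250 bases before to 50 bases after each transcription start in RefSeq promoters (GRCm38.p6, the build of mm10). An exact match was found in 9 of the 29 members with a promoter entry, compared with 37 of all 27025 gene symbols (0.137%). The sites are shown because their genes share the pattern described below. Each is written 5′ to 3′ on the strand that reads CCAAT first, with the fixed letters in capitals:
Hspa5, chr2:34772019-34772049, plus strand: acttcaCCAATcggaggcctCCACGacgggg
Hsp90b1, chr10:86705632-86705662, minus strand: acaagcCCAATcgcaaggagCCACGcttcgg
Hsp90b1, chr10:86705527-86705557, plus strand: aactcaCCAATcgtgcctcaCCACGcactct
Calr, chr8:84847069-84847099, plus strand: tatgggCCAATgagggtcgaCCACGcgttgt
Canx, chr11:50325794-50325824, minus strand: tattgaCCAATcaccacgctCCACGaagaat
Dnajc3, chr14:118937821-118937851, plus strand: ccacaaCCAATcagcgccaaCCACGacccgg
Creld2, chr15:88819514-88819544, minus strand: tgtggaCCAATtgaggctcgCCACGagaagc
Pdia6, chr12:17266485-17266515, plus strand: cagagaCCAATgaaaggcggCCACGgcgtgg
Syvn1, chr19:6046526-6046556, plus strand: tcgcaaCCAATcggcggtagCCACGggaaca
Derl3, chr10:75893236-75893266, minus strand: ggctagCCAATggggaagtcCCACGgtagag

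The shorter ERSE-II, ATTGGNCCACG, was found in 2 members and in 0.0444% of all symbols, and it shares the letters CCACG with ERSE. In Herpud1 it lies between 52 and 42 bases before the start, and in Dnajb11 just after it:
Herpud1, chr8:94386371-94386393, plus strand: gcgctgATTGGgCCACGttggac
Dnajb11, chr16:22857846-22857868, plus strand: gcggcgATTGGcCCACGcctggc

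The letters TGATGNAA, the core of the element bound by ATF4 with C/EBP factors, were found in Chac1, Asns and Herpud1 and in 4.51% of all symbols, so such a match is common by itself. The sites are shown because Chac1 and Asns are textbook ATF4 targets with very different levels here:
Chac1, chr2:119351043-119351062, minus strand: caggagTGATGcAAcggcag
Asns, chr6:7693219-7693238, minus strand: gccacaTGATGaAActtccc

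The whole RefSeq promoters of Hspa5 and Derl3 are given for context, since Hspa5 is the reference chaperone of the response and Derl3 had the largest difference between labels among the tested members. Both are on the plus strand, and capitals mark the ERSE letters, which in Derl3 read in the opposite direction.
Hspa5, chr2:34771840-34772139: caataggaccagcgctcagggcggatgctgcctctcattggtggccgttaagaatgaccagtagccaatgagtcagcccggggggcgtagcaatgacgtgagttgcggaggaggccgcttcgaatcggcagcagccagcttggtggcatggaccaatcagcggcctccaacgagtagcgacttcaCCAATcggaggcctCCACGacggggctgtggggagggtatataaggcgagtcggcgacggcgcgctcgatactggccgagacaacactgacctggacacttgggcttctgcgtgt
Derl3, chr10:75893148-75893447: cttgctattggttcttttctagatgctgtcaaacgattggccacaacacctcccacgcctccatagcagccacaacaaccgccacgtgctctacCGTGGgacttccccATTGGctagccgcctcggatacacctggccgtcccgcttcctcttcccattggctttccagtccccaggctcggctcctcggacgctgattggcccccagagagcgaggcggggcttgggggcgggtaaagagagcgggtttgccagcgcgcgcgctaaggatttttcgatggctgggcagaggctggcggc

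No member differed between the labels past the threshold, and 6 of the 11 ER chaperone genes varied at least 2-fold between libraries within each label. Of the 32 members 29 reached at least 1 TPM in at least 3 libraries and were tested with limma, and 0 passed a Benjamini-Hochberg adjusted p of 0.05 (smallest adjusted p = 0.993), where 0.00874% of all genes tested passed. No tested member had an unadjusted p below 0.05, compared with 3.15% of all genes tested. The libraries of the 2 labels overlapped for every one of the 32 members, whereas they did not overlap for 9.08% of all genes tested. The tested members had a median difference of +0.20 (log2, KO minus WT), and 25 of 29 lay above 0, beside +0.09 and 74.5% for all genes tested.

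That median shifted when single libraries were left out. It was +0.02 without WT 2, +0.05 without KO 3, +0.14 without KO 1, +0.38 without WT 3, +0.43 without KO 2 and +0.30 without WT 1. Without both libraries of a number, a setting chosen after seeing the data, it was +0.24, +0.25 and +0.18 for numbers 1, 2 and 3. Median-ratio scaling gave +0.09, with 21 of 29 above 0 where 49.6% of all genes were, and quantile normalization gave +0.11. Treating same-numbered libraries as pairs (a replicate block in limma) left 0 members called (smallest adjusted p = 0.724) but raised those with an unadjusted p below 0.05 from 0 to 8, all higher in the KO-labelled libraries, where 5.26% of all genes were. These were Calr, Dnajc3, Sdf2l1, Pdia3, Pdia4, Pdia6, Derl3 and Chac1. With the block and median-ratio scaling together 3 remained (Sdf2l1, Pdia6 and Chac1), where 2.19% of all genes were higher at that level.

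**Figure D1:**
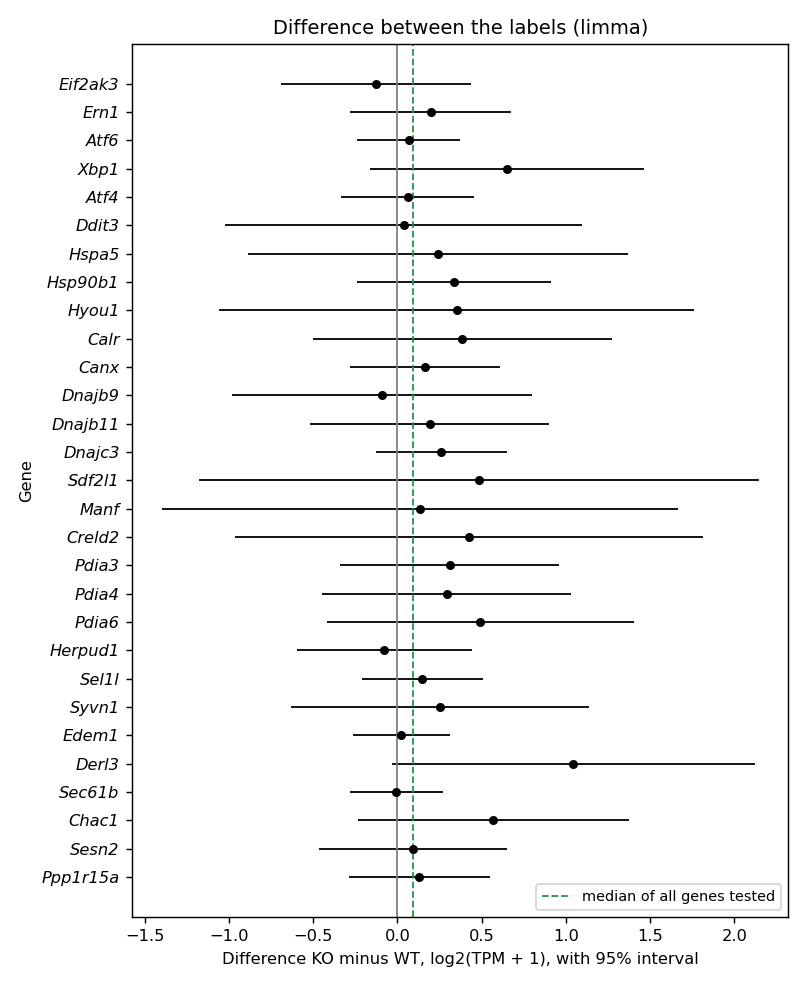
Difference between the labels for each of the 29 tested genes, as KO minus WT on the log2(TPM + 1) scale (x axis), with the limma 95% interval as a bar; the dashed line is the median of all genes tested, +0.09. Every interval includes 0, and those of Sdf2l1 and Manf span more than those of Sec61b and Edem1.

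Most tested members were lowest in the number 2 library of each label. In 22 of the 29 tested members WT 2 was the lowest of its label and KO 2 the lowest of its own, a pattern that 10.4% of all genes tested showed, or 16.6% after median-ratio scaling, where 24 of 29 members showed it. WT 2 alone was lowest of its label in 28 of 29 and KO 2 in 23 of 29. Compared within a number, the KO-labelled library was the higher one for 24, 20 and 24 of the 29 members in numbers 1, 2 and 3, where it was for 57.1%, 69.3% and 68.0% of all genes tested. KO 3 was the highest of all 6 libraries for 21 of 29 members, against 18.2% of all genes tested. The summed level of the 32 members was 2393, 1492 and 2500 TPM in WT 1 to 3 and 2762, 1695 and 3251 in KO 1 to 3, so a number 2 library was the lowest in each label and the sums of the labels overlapped. The members share regulators and are not independent of each other, so these counts describe the libraries and carry no test.

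**Figure D2:**
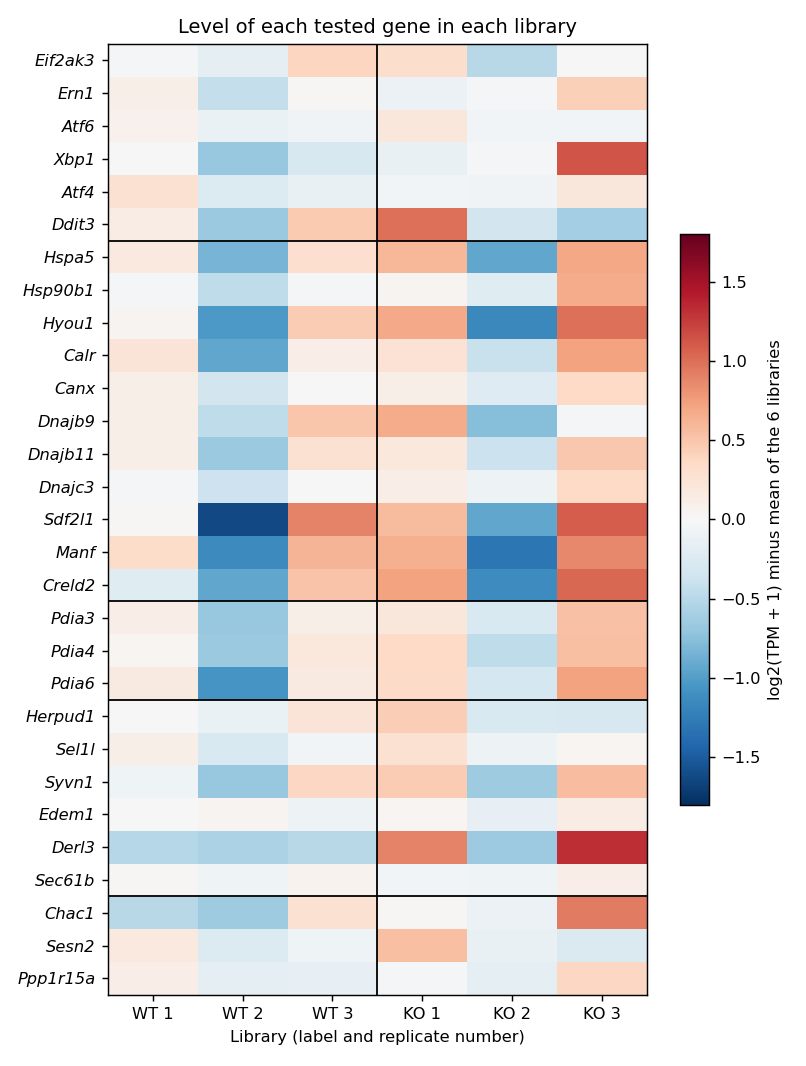
Level of each tested gene in each library as log2(TPM + 1) minus its mean over the 6 libraries, with black lines between the role groups (from the top: sensors and factors, chaperones, disulfide isomerases, degradation and translocon, ATF4 and CHOP targets) and between the labels. The columns WT 2 and KO 2 are blue across all 11 chaperones and 3 isomerases, and KO 3 is red for most of them.

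All 11 ER chaperones were lowest in number 2 of both labels. Hspa5, encoding BiP, the main ER chaperone and the repressor of the stress sensors, was at 315, 156 and 342 TPM in WT 1 to 3 and at 421, 145 and 454 in KO 1 to 3. Its highest and lowest libraries differed 2.20-fold within WT and 3.12-fold within KO, while the WT mean of 271 ± 101 TPM and the KO mean of 339.9 ± 169 (SD, n = 3 each) differed by +0.24 (log2, SE 0.48, limma adjusted p = 0.993). Calr, the lectin chaperone calreticulin and the most abundant member, was at 367, 163 and 342 TPM in WT and at 374, 238 and 515 in KO. The labels overlapped for both genes, and the number 2 libraries lay below all the others.

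Sdf2l1, a partner of BiP and the least abundant chaperone here, varied most within WT, from 18.1 to 5.10 and 33.9 TPM in WT 1 to 3, a 6.65-fold span. In KO 1 to 3 it was at 27.0, 8.88 and 38.96 TPM, and the difference was +0.48 (SE 0.71). Within each number the KO-labelled library was higher, by 0.55, 0.70 and 0.20 on the log2 scale. Its unadjusted limma p was 0.518 without and 0.0109 with the replicate block (adjusted p = 0.993 and 0.724). Manf, a secreted ER stress factor, followed number 2 in the same way, at 139.8, 49.9 and 171 TPM in WT and 175, 44.4 and 204 in KO.

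Creld2, a stress-induced ER protein, was at 17.3, 10.2 and 29.6 TPM in WT and 34.5, 8.79 and 42.8 in KO. Hyou1, the large nucleotide exchange chaperone that acts on BiP, was at 27.3, 12.4 and 36.8 TPM in WT and 43.1, 11.3 and 53.8 in KO. For both genes KO 2 lay below every other library, while KO 1 and KO 3 lay above the highest WT value. Without KO 2, Hyou1, Creld2 and Derl3 had an unadjusted limma p below 0.05, where 2.19% of all genes were higher at that level, but the smallest adjusted p of any member was then 0.149.

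The remaining 5 chaperones had label differences from -0.09 for Dnajb9 to +0.34 for Hsp90b1. Hsp90b1, encoding the ER form of HSP90, was at 245, 180 and 245 TPM in WT and 257, 213 and 397 in KO. Canx, the membrane-bound lectin chaperone calnexin, spanned 85.1 to 116 TPM in WT and 91.8 to 139 in KO. The BiP co-chaperones Dnajb11 and Dnajc3 had label means of 44.1 and 50.2, and of 51.7 and 62.2 TPM. Dnajb9, a further co-chaperone that restrains IRE1, was at 40.9, 27.5 and 53.98 TPM in WT and 60.9, 21.9 and 37.4 in KO, and was the only one of the 11 chaperones not highest in KO 3 among the KO-labelled libraries.

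All 3 disulfide isomerases, which form and rearrange disulfide bonds in the ER, were lowest in number 2 of both labels. Pdia3, which acts with calreticulin and calnexin on glycoproteins, was at 161, 92.7 and 159.8 TPM in WT and 172, 124 and 215 in KO. Pdia4, the least abundant, was at 67.1, 40.9 and 74.4 TPM in WT and 84.1, 47.1 and 95.6 in KO. Pdia6 was at 120.3, 51.0 and 121 TPM in WT and 137, 85.9 and 178 in KO. Each KO-labelled library was above the WT-labelled library of the same number for all 3 genes. Their differences were +0.31, +0.29 and +0.49 (log2, SE 0.28, 0.32 and 0.39), and after median-ratio scaling +0.20, +0.18 and +0.38. Without WT 2 the differences were +0.049, +0.035 and +0.085, and without KO 2 they were +0.52, +0.60 and +0.78.

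**Figure D3:**
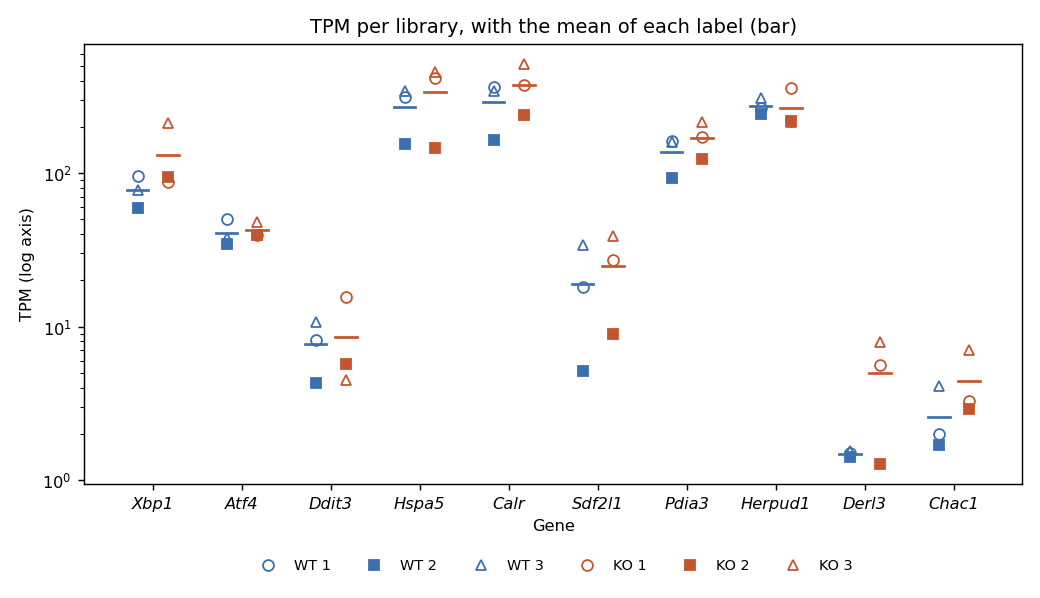
TPM of 10 genes in each library on a log axis, WT in blue and KO in orange, with circles, filled squares and triangles for numbers 1, 2 and 3 and a bar at the mean of each label. The filled squares lie lowest in both labels for Hspa5, Calr, Sdf2l1 and Pdia3, and Derl3 is near 1.5 TPM in 4 libraries and above 5 in KO 1 and KO 3.

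Upstream of these genes, no sensor differed between the labels past the threshold. Atf6, the ER-anchored factor released by cleavage, was at 13.8, 11.9 and 12.5 TPM in WT and 15.1, 12.6 and 12.5 in KO. Ern1, encoding IRE1α, was at 12.5, 8.41 and 11.8 TPM in WT and 10.7, 11.4 and 16.0 in KO. Eif2ak3, encoding PERK, was at 4.26, 3.74 and 5.97 TPM in WT and 5.64, 2.79 and 4.29 in KO. Their differences were +0.07, +0.20 and -0.13 (log2, SE 0.13, 0.20 and 0.24), and the libraries of the labels overlapped for each.

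Xbp1, the substrate of IRE1, had the largest difference among the sensors and factors, and KO 3 carried most of it. It was at 96.0, 59.5 and 78.1 TPM in WT and at 87.0, 94.9 and 211 in KO, so KO 3 lay 2.43-fold above KO 1 and the other 2 KO-labelled libraries within the WT range. Mean levels were 77.9 ± 18.3 TPM in WT and 131 ± 69.6 in KO (SD, n = 3 each), which gave a log2 difference of +0.65 (SE 0.35, 95% interval -0.16 to +1.46, limma adjusted p = 0.993). Without KO 3 the difference was +0.25, and the same-numbered differences were -0.14, +0.67 and +1.43 (adjusted p = 0.724 with the replicate block).

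Of the transcripts of ATF4 and CHOP, the former was lowest in number 2 of both labels, although KO 2 was nearly level with KO 1. The latter was lowest in number 2 of WT only. Atf4 was at 50.2, 34.8 and 37.6 TPM in WT and 39.7, 39.4 and 47.8 in KO, with a difference of +0.06 (SE 0.17) that median-ratio scaling turned to -0.05. Ddit3, encoding CHOP, was at 8.18, 4.27 and 10.6 TPM in WT and 15.6, 5.67 and 4.49 in KO. KO 1 thus had the highest Ddit3 of all libraries, and KO 3, the highest for Xbp1 and for 10 of the 11 chaperones, had the lowest of its label. The same-numbered differences of Ddit3 were +0.86, +0.34 and -1.08, and its gene span overlaps that of Mars on the opposite strand, and reads of the overlapping part cannot be told apart without strand.

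Of the 6 degradation and translocon genes 4 were lowest in number 2 of both labels, and Herpud1 and Edem1 were not. Herpud1, a membrane component of ER-associated degradation and the most abundant member of this group, was at 265, 241 and 311 TPM in WT and at 358, 219 and 215 in KO, with KO 1 the highest and KO 3 the lowest of the KO-labelled libraries, as for Ddit3. Syvn1, the ubiquitin ligase HRD1, was lowest in number 2 and highest in KO 3, at 12.9, 8.16 and 18.1 TPM in WT and 19.2, 8.41 and 20.6 in KO. Its partner Sel1l varied little, from 20.6 to 27.2 TPM in WT and 23.7 to 30.6 in KO. Edem1, a lectin that sends misfolded glycoproteins to degradation, and Sec61b, a translocon subunit, were among the flattest members, with spans of 1.11-fold within WT for each and 1.22- and 1.15-fold within KO.

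Derl3, a derlin induced by ER stress that helps to pull proteins out of the ER, had the largest difference of any tested member. It was at 1.51, 1.41 and 1.53 TPM in WT and at 5.64, 1.27 and 7.93 in KO. Both KO 1 and KO 3 were above all WT-labelled libraries and KO 2 below all of them. Mean levels were 1.48 ± 0.0631 TPM in WT and 4.95 ± 3.39 in KO (SD, n = 3 each). The difference was +1.05 (log2, SE 0.46, 95% interval -0.03 to +2.12), with an unadjusted limma p of 0.0557 (adjusted p = 0.993). It was +0.64 without KO 3 and +1.63 without KO 2. Derl3 is also a gene of plasma cells, and the summed level of the 9 plasma and B cell markers was 36.1, 45.8 and 13.3 TPM in WT and 28.96, 55.6 and 12.8 in KO. Of these markers 5 stayed below 1 TPM in every library, and Tnfrsf17 was listed at 0 in all. The sum was highest in KO 2 and lowest in KO 3, and Igkc was the most abundant of the markers. Single markers differed in pattern. Jchain was at 1.97, 1.84 and 0.726 TPM in WT and 2.63, 3.50 and 0.793 in KO, highest in KO 2. Mzb1 was at 0.364, 0 and 0 TPM in WT and 0.543, 0 and 0 in KO, highest in KO 1. Any part of these cells in the levels of Derl3 was not tested. In bulk tissue, fewer cells of a type and less RNA per cell cannot be told apart.

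The 6 members that are target genes of ATF4 and CHOP were at most 7.06 TPM in any library, the value of Chac1 in KO 3. Other targets of these factors were abundant, such as Cth, which makes cysteine and had a mean of 212 TPM, named here for its level. Of the 6 members, Asns, Psat1 and Phgdh, which make asparagine and serine, stayed below 1 TPM in every library and were not tested. Asns ranged from 0.108 to 0.408 TPM in WT and from 0.302 to 0.745 in KO, and Psat1 from 0.352 to 0.561 and from 0.174 to 0.374. Phgdh, the least abundant member, was at 0.087, 0.169 and 0.062 TPM in WT and at 0.871, 0.106 and 0.108 in KO, so 1 library set its KO mean. Ppp1r15a, encoding GADD34, which returns eIF2α to its unphosphorylated state, was the highest of the group at 5.67, 4.39 and 4.54 TPM in WT and 5.05, 4.46 and 6.92 in KO. Sesn2, encoding the leucine sensor sestrin 2, ranged from 1.78 to 2.70 TPM in WT and from 1.74 to 3.77 in KO.

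Chac1, which degrades glutathione, was the tested member of this group with the largest difference, although the labels overlapped. It was at 1.98, 1.69 and 4.10 TPM in WT and 3.27, 2.89 and 7.06 in KO. The KO-labelled library was higher within each number, by 0.52, 0.53 and 0.66 on the log2 scale. The difference of +0.57 had an SE of 0.34 without and 0.13 with the replicate block, and limma p-values of 0.139 and 0.0060 (adjusted p = 0.993 and 0.724). It was +0.24 without KO 3, which had the highest level, and +0.85 without WT 3.

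The 9 members with an exact ERSE, listed above, were compared with the 17 other tested members that had a promoter entry. All 9 ERSE genes were lowest in number 2 of both labels, as were 11 of the 17. All 9 had a difference above 0, with a median of +0.34, or +0.22 after median-ratio scaling, and 13 of the 17 did, with a median of +0.13, or +0.04. The 17 include Herpud1 and Dnajb11, which carry ERSE-II. Of the 11 members with ERSE or ERSE-II, 10 were lowest in number 2 of both labels and 10 had a difference above 0. Their median was +0.26, or +0.15 after median-ratio scaling. Herpud1, with a difference of -0.08, was the exception in both counts. The members were chosen as known stress genes, in part for this element, so the match describes them and the counts carry no test. Absence of a match says only that these letters are not in this window.

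Other genes of the same pathways, grouped by role, gave no call. Of 143 tested genes 0 passed in limma (smallest adjusted p = 0.993), 2 had an unadjusted p below 0.05, where 3.15% of all genes tested did, and the median difference of the 143 was +0.08. The labels did not overlap for 13 of the 143, where they did not for 9.08% of all genes tested. The number 2 libraries were lowest in both labels for 47 of the 143. By list, this was so for 13 of 22 translocon and signal peptidase genes, 8 of 20 cytosolic aminoacyl-tRNA synthetases, 9 of 25 other ER folding genes and 6 of 22 other degradation genes. It was so for 4 of 18 other ATF4 and CHOP targets, for 2 of 7 genes in each of the lists of other ER sensors and of eIF2α kinases and phosphatases, and for 1 of 9 mitochondrial stress genes. Cytosolic heat shock genes showed it in 2 of 13, although KO 3 was the highest of 6 libraries for 9 of them. KO 2 was above WT 2 for only 2 of these 13 genes, where it was for 69.3% of all genes tested. Their median deviation from the mean of the 6 libraries was -0.48 in KO 2 and +0.03 in WT 2 on the log2 scale. For the 29 tested members it was -0.27 in KO 2 and -0.56 in WT 2.

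**Figure D4:**
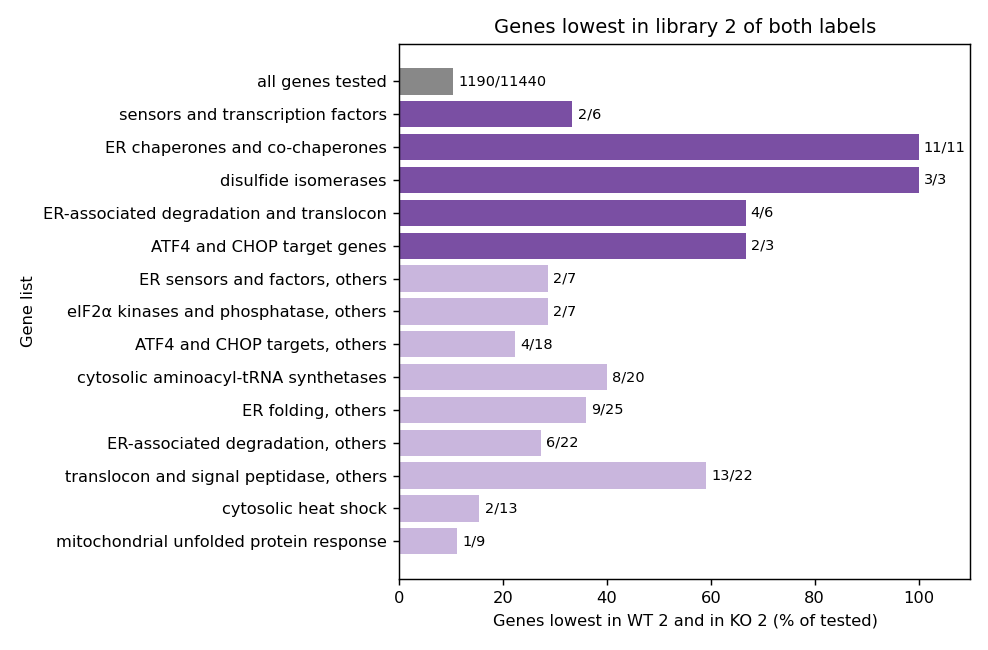
Share of tested genes that were lowest in WT 2 among the WT libraries and in KO 2 among the KO libraries (x axis, percent), for all genes tested (grey), the role groups of the 32 members (dark) and the other pathway lists (light), with the counts beside the bars. All 11 chaperones and 3 isomerases are at 100%, beside 10.4% of all genes tested.

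The 2 other pathway genes with an unadjusted p below 0.05, Nfe2l1 and Rpn1, are among those 13. Nfe2l1, an ER-anchored activator of proteasome genes, stood at 42.3, 39.2 and 43.6 TPM in WT and 31.4, 31.8 and 26.3 in KO. Its difference was -0.47, with an unadjusted limma p of 0.00638 (adjusted p = 0.993). Rpn1, a subunit of the oligosaccharyltransferase that glycosylates proteins entering the ER, was at 57.3, 41.4 and 49.8 TPM in WT and 57.8, 63.1 and 71.5 in KO. Its difference was +0.37, with an unadjusted limma p of 0.0462 (adjusted p = 0.993). An exact permutation test of 3 libraries against 3 cannot go below p = 0.10.

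Some measures of the libraries moved with number 2, and their part in the pattern was not tested. The 7 hepatocyte markers summed to 45640, 55480 and 48010 TPM in WT and to 56000, 69020 and 50990 in KO, highest in number 2 of each label. Alb, the most abundant of them, was the only one of the 7 that was highest in number 2 of both labels, and without it the sums were 16850, 16610 and 16620 TPM in WT and 18070, 20050 and 19600 in KO, highest in KO 2 but not in WT 2. The share of TPM from mitochondrially encoded genes was 18.8%, 24.5% and 20.9% in WT and 21.9%, 21.6% and 16.2% in KO, so it was highest in WT 2 but not in KO 2, and lowest in KO 3. Summed markers of sinusoidal endothelial cells ran from 118 to 134 TPM in WT and 116 to 147 in KO, also highest in number 2 of each label. So were those of plasma and B cells, although only 2 of the 9 markers were themselves highest in number 2 of both labels. Without Igkc these summed to 8.02, 18.7 and 4.075 TPM in WT and 8.58, 21.1 and 2.97 in KO. Summed markers of Kupffer cells and macrophages ran from 163 to 234 TPM in WT and 201 to 220 in KO, and of cholangiocytes from 24.9 to 35.4 and 35.1 to 56.2. Those of stellate cells and fibroblasts ran from 125 to 148 and 150.2 to 169, without overlap of the labels. Without Dcn, the most abundant of these, the sums were 38.15, 42.7 and 36.74 TPM in WT and 47.05, 45.53 and 42.37 in KO. The labels then overlapped. Neutrophil markers summed to at most 8.26 TPM and those of T and NK cells to at most 2.47. Of the pancreatic acinar markers, Cpa1, Pnlip, Prss2 and Ctrb1 were listed at 0 in every library, while Cela1 was at 54.5 to 87.8 TPM.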

How the data were processed

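The authors deposited one table of TPM for 54600 genes and 6 libraries. The submitters' processing notes name mm10 and the tools HISAT2, fastp, DESeq2, limma and featureCounts, whose roles and versions are not given in the sources used here. How shared reads and strand were counted is not given either, so values of overlapping genes (Ddit3 with Mars, Manf with Dcaf1, Syvn1 with Mrpl49) are uncertain. Symbols and coordinates came from GENCODE M21, and 51492 identifiers matched a symbol.

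The 11440 genes that reached 1 TPM in 3 or more libraries were fitted on log2(TPM + 1) with limma 3.58.1 in R 4.3.3, with a variance trend, two-sided. P-values were adjusted over all genes tested. Fold changes on this scale understate changes of low genes. The members, lists and tests were chosen with earlier results of these data known. Values in every library are given for the sensors and factors, for the most and least abundant member of each role group, and for others chosen after their values were seen. At most 3 genes of each other pathway list were to be named.

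Both groups carry the numbers 1 to 3 in the labels, which do not state that a number marks a pair. Same-numbered libraries deviated together (0.16, 0.41 and 0.38), and differently numbered ones at -0.37 to 0.03. The deviations sum to 0 within each label, so these correlations are not independent of each other. On this basis a fit with the number as a block was also used. Spearman correlations between libraries were 0.945 to 0.978, and each was used as 1 replicate.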

Additional observations from a re-analysis of the deposited data

How the results depend on the processing

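The 0 members called stayed at 0 under all 18 alternatives, among them 2 other pseudocounts, 2 other filters, 3 other scalings, the replicate block and leaving out each library, and without both libraries of a number, which was chosen after seeing the data. The 1 gene called in the whole table became 0 with a pseudocount of 5, no filter, a filter of 5 TPM, quantile normalization, the replicate block with or without median-ratio scaling, and without both libraries numbered 1 or 3. It became 2 without both numbered 2, and ran from 0 to 2 with 1 library left out. The member median ran from +0.02 to +0.43 with 1 library left out and from +0.18 to +0.25 without both libraries of a number. No member difference passed the threshold in 518 recomputations, and 51 changed sign. Signs turned with median-ratio scaling, with or without the replicate block, for Atf4 (-0.048), Atf6 (-0.037), Ddit3 (-0.064) and Edem1 (-0.085). They turned with quantile normalization for Atf4 (-0.019), Atf6 (-0.039), Ddit3 (-0.080), Edem1 (-0.057) and Sesn2 (-0.0042). Without the most abundant and mitochondrial genes they turned for Atf4 (-0.0041), Ddit3 (-0.028) and Edem1 (-0.042), and with library weights for Dnajb9 (+0.053), Edem1 (-0.019) and Herpud1 (+0.029). With 1 library left out, 16 members spanned 0: Atf4 from -0.043 to +0.215, Atf6 from -0.016 to +0.124, Ddit3 from -0.449 to +0.35, Dnajb11 from -0.095 to +0.43, Dnajb9 from -0.444 to +0.273, Edem1 from -0.039 to +0.102, Eif2ak3 from -0.318 to +0.086, Herpud1 from -0.318 to +0.048, Hspa5 from -0.116 to +0.768, Hyou1 from -0.078 to +1.02, Manf from -0.401 to +0.823, Ppp1r15a from -0.023 to +0.24, Sdf2l1 from -0.212 to +1.07, Sec61b from -0.069 to +0.033, Sesn2 from -0.152 to +0.25, and Syvn1 from -0.026 to +0.64. The 13 others stayed above 0: Calr from +0.016 to +0.68, Canx from +0.021 to +0.32, Chac1 from +0.24 to +0.85, Creld2 from +0.013 to +1.09, Derl3 from +0.64 to +1.63, Dnajc3 from +0.14 to +0.37, Ern1 from +0.031 to +0.30, Hsp90b1 from +0.083 to +0.53, Pdia3 from +0.049 to +0.52, Pdia4 from +0.035 to +0.60, Pdia6 from +0.085 to +0.78, Sel1l from +0.045 to +0.24, and Xbp1 from +0.25 to +0.88. The cause was not tested. Depth is unknown, so the precision of low values cannot be given.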
